A study of Mus musculus with 12 samples.

Results

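Gene expression was compared between day 4 and day 2 of exposure to the TEAD inhibitor MGH-CP1 (CP1) in mouse embryonic fibroblasts that lack the Hippo kinases LATS1 and LATS2 (double knockout, DKO). The comparison rests on 4 of the 12 libraries of the study, chosen by their labels: 2 DKO libraries of day 2 and 2 of day 4, all with CP1 at 1 µM. All genes were included, and 16595 of 32168 passed a filter on low counts. The other libraries were DKO cells in DMSO, the solvent, at day 2 and day 4 (1 library each), and wild-type (WT) fibroblasts with CP1 (2 libraries per day) or DMSO (1 per day). The cells came from embryos of day 13.5 and were used at passage 4 to 10. No line, clone, Cre driver or sex is given for either genotype, so the loss of the kinases and a difference in the origin of the cells cannot be told apart. The labels do not say that the repeats were separate cultures, so p-values measure the spread between these libraries, which may be technical.

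LATS1 and LATS2 phosphorylate the co-activators YAP and TAZ and so hold them outside the nucleus, where they would bind the TEAD transcription factors. MGH-CP1 occupies the lipid pocket of TEAD proteins and blocks their palmitoylation. Active YAP/TAZ and TEAD are known in fibroblasts for growth, matrix production and secreted factors. Genotype and dose were the same in the 4 libraries, and exposure time and culture time differed together. The change over the same days in DMSO is therefore given beside each gene list and beside many of the genes described in detail.

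Library totals of the 4 DKO CP1 libraries ran from 16970834 to 22814827 counts. Lats1 stood at 35.5 to 40.6 CPM (counts scaled to the normalized library total) in these libraries and at 94.0 to 107 CPM in WT cells with CP1, and Lats2 at 16.6 to 19.6 against 48.4 to 54.8 CPM. Exons left intact by a deletion still yield reads, which these counts would include. The extent of the deletion in these cells was not tested. The DKO DMSO library of day 2 stood apart: in the fifth of genes with the lowest GC content the median log2 change from day 2 to day 4 was 0.50 in DMSO, against 0.11 with CP1. No DMSO value without that library can be had, since it is the only one of its group, and its part in the results set against DMSO was not tested beyond a correction for GC content. The 2 DKO CP1 repeats of day 2 differed more from each other (SD of their log2 differences 0.169) than those of day 4 (0.13).

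Between day 2 and day 4 of CP1 transcripts of glycolysis and of the response to low oxygen fell in the DKO cells. Transcripts rose for a set of secreted, receptor and matrix genes, among them Agtr2, Rspo2 and Dcn. Of 25 genes of ribosome assembly 19 rose and of 31 mitosis genes 16, by small amounts, and type I collagen, fibronectin and several TGF-beta target genes fell. In all, 2013 genes rose (12.1% of those tested) and 1999 fell (12%) at an adjusted p under 0.05 (quasi-likelihood test of edgeR, p-values adjusted after Benjamini and Hochberg, here and throughout). Most changes were small, since 89 of the higher and 257 of the lower genes changed at least 2-fold. Without day 4 repeat 1 the number of called genes was 2179 in place of 4012.

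In DKO cells kept in DMSO, 2176 genes were higher (13.1%) and 2483 lower (15%) at day 4, in a fit that assumes that the lone libraries vary like the replicated groups. The 2 day changes share no library. Of the 2013 genes that rose with CP1, 630 (31.3% of them, 29% of the genes higher in DMSO) were also higher in DMSO, 476 were lower there and 907 were not called. Of the 1999 that fell, 387 (19.4% of them, 15.6% of the genes lower in DMSO) were also lower in DMSO, 195 were higher and 1417 were not called. Across 10921 genes with a mean log2 CPM of at least 2, Pearson's r between the 2 day changes was 0.165, and that between the day changes of DKO and WT cells with CP1 was 0.274. These are descriptions across genes, which are not independent replicates, since all points of an axis come from the same libraries.

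**Figure D1:**
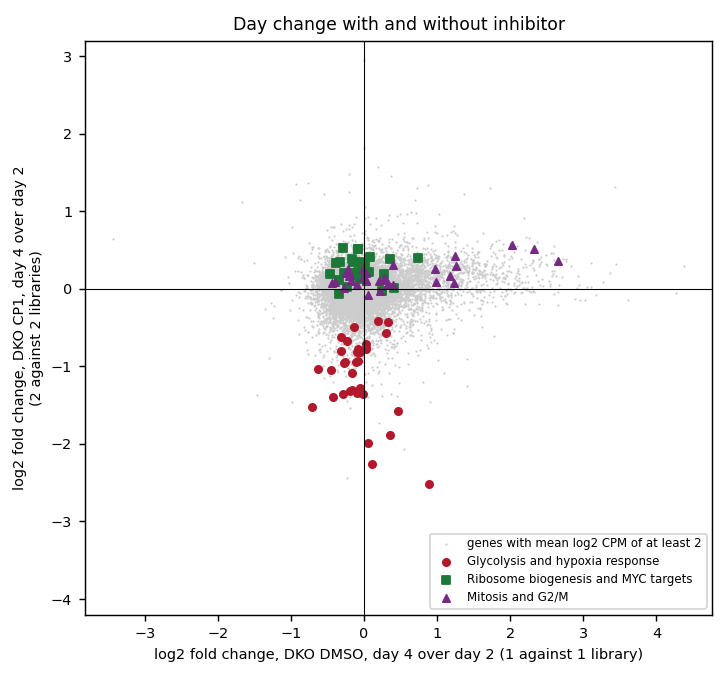
Each point is 1 gene, with the log2 fold change of day 4 over day 2 in DKO cells in DMSO (x axis, 1 library against 1) and with CP1 (y axis, 2 against 2). The glycolysis and hypoxia-response genes lie below 0 on the y axis (median -0.95) and near 0 on the x axis (median -0.10), and some mitosis genes lie beyond 2 on the x axis.

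Cells sense oxygen through prolyl hydroxylases that mark the alpha subunits of hypoxia-inducible factor (HIF) for destruction. When hydroxylase activity is low, HIF accumulates and switches on genes for glucose uptake, glycolysis, lactate export and mitophagy. Of a list of 33 glycolysis and hypoxia-response genes, all of them tested, 0 rose and 30 fell with CP1 from day 2 to day 4, with a median log2 fold change of -0.95 against -0.001 over all tested genes. The list was chosen with earlier results of these data known, so its counts here and below are descriptions and not independent tests. In DMSO 1 of the 33 was higher and 3 were lower (median -0.10). In WT cells with CP1, where 7% of all genes rose and 8.26% fell, 13 of the 33 rose and 2 fell (median 0.19). Counts of several glycolytic genes can include reads of their pseudogenes.

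HIF binds sites with the core ACGTG or GCGTG, and the promoters of 3 of these genes are shown as examples. Bnip3 and Higd1a are among the 10 genes with the largest fall at a mean log2 CPM of at least 2, and Car9 is a classical HIF target. Each stretch holds the 250 bases before the RefSeq start (GRCm38.p6, the RefSeq release of mm10), 5′ to 3′ on the strand of the gene. The gene spans given below come from the annotation of the count table and begin further upstream. The Higd1a window lies within its span, and the Bnip3 and Car9 windows overlap theirs. The Car9 match also lies within the span of Car9. Capitals mark ACGTG or GCGTG on either strand (their reverse complements read CACGT and CACGC), and matches can overlap.
Bnip3, chr7:138909507-138909756, minus strand: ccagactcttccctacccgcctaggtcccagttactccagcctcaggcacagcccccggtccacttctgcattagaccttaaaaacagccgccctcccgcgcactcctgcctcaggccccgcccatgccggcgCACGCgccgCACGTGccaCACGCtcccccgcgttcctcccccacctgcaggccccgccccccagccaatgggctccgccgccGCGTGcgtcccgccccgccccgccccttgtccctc
Higd1a, chr9:121857797-121858046, minus strand: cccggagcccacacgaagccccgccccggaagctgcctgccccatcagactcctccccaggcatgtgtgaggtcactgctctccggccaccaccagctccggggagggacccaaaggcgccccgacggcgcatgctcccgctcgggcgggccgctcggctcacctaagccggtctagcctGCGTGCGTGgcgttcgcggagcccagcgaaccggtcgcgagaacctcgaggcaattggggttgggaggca
Car9, chr4:43506776-43507025, plus strand: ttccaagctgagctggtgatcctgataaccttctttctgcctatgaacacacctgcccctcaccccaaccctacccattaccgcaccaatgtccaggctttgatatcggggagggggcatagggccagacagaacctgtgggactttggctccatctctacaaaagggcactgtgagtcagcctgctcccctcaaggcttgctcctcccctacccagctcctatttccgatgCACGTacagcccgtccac
The Bnip3 window holds 5 matches, and 1 CACGTG palindrome lies among them. The Higd1a window holds 2 and the Car9 window 1. Of 32851 promoter windows of the RefSeq set, 38.6% hold at least 1 match, and 6.02% hold CACGTG. Of the 33 genes 29 were in the table and 20 of them had a single window, 17 of which held a match. The share over all windows counts every window of every gene, so the sets are unlike and no excess of matches is read from them. A match is a description of these letters and not a binding site.

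Among the genes that act on mitochondria, Bnip3 (ENSMUSG00000078566.8, mm10 chromosome 7, 138890836 to 138909519, minus strand) encodes a receptor that recruits autophagosomes to them. It stood at 55.3 and 78.0 CPM in the day 2 libraries, at 18.1 and 15.2 CPM in those of day 4, and at 37.5 and 38.8 CPM in DMSO at day 2 and day 4. Both day 4 libraries were below every other DKO library, and the log2 change was -1.99 (SE 0.20, adjusted p = 0.00133, edgeR) with CP1 against 0.05 in DMSO (adjusted p = 0.953, edgeR). Higd1a (ENSMUSG00000038412.8, chromosome 9, 121848563 to 121858362, minus strand), a protein of the inner mitochondrial membrane, went from 113 and 169 CPM to 49.5 and 44.2 CPM, with 70.7 and 98.0 CPM in DMSO. Its day 4 libraries were again the lowest, with a log2 fold change of -1.58 (SE 0.23, adjusted p = 0.0124, edgeR). The related mitophagy receptor gene Bnip3l went from 88.0 and 117 CPM to 72.4 and 65.3 CPM and fell by 0.57 on the log2 scale. Fam162a, a mitochondrial protein gene outside the list, fell by 1.72 on the log2 scale, from 177 and 272 CPM to 69.6 and 66.4 CPM (adjusted p = 0.011, edgeR). The calls of Higd1a, Fam162a, Ero1l and Ndrg1 were lost without either day 4 repeat (edgeR adjusted p from 0.0726 to 0.192), and Bnip3 stayed called in both of those fits.

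Among the sensors and regulators, the prolyl hydroxylase gene Egln3 was at 3.11 and 6.08 CPM at day 2, at 1.00 and 0.894 CPM at day 4 and at 2.39 and 2.57 CPM in DMSO. Day 4 was lowest, with a fall of 2.26 on the log2 scale (SE 0.31, adjusted p = 5.19e-06, edgeR). Egln1, the main oxygen sensor of most cells, fell by 1.32 on the log2 scale, from 156 and 223 CPM to 77.3 and 74.8 CPM (adjusted p = 0.0157, edgeR). Ankrd37, a small ankyrin-repeat protein gene induced by HIF, went from 4.06 and 6.89 CPM to 1.13 and 0.727 CPM, while the DMSO libraries held 1.92 and 3.57 CPM. It had the largest fall of the 33 in the fit used here (log2 fold change -2.52, SE 0.31). Kdm3a, a histone demethylase gene induced by HIF, had the smallest change among the called members (-0.43) and was higher at day 4 in DMSO (0.32, adjusted p = 0.0134, edgeR).

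**Figure D2:**
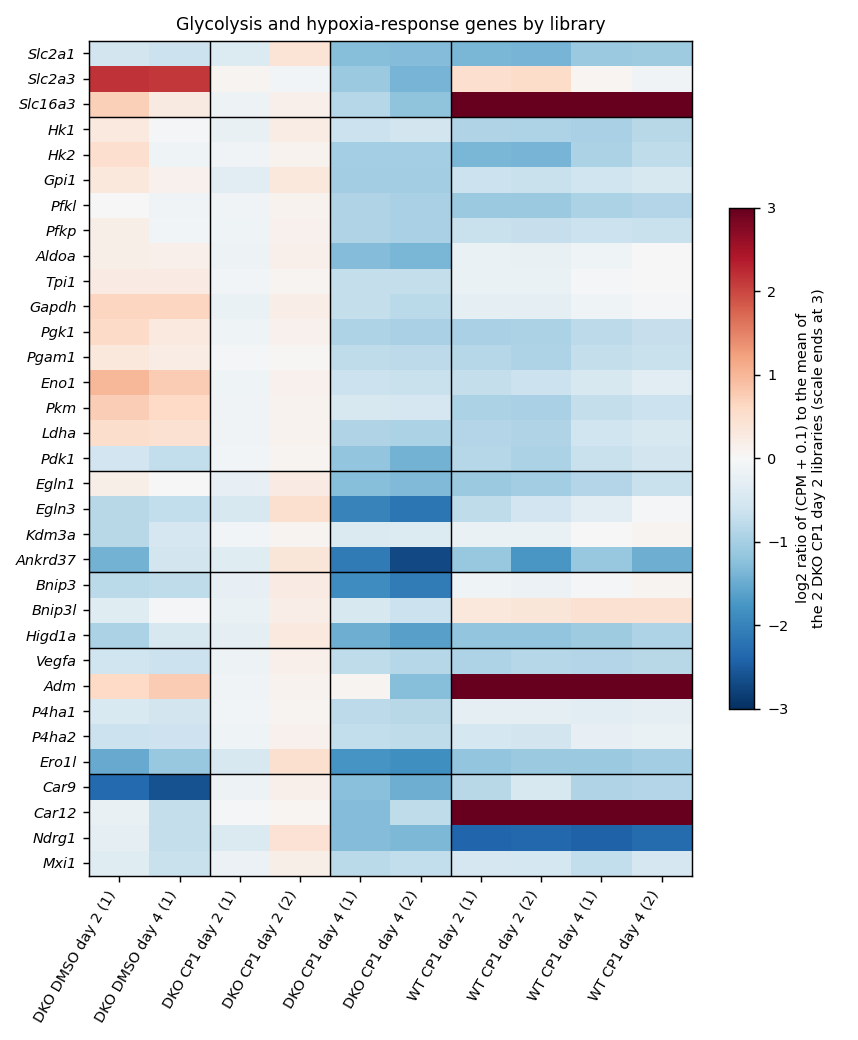
The heat map gives the log2 ratio of CPM + 0.1 to the mean of the 2 DKO CP1 day 2 libraries for the 33 genes (rows) in 10 libraries (columns, repeat number in brackets), with black lines between roles and groups. Both DKO CP1 day 4 columns are below both day 2 columns in 32 of the 33 rows, the exception being Adm. How many of all tested genes had such a separation was not counted.

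The genes of glucose uptake and glycolysis gave lower values at day 4. Slc2a1, the main glucose transporter of fibroblasts, was at 226 and 397 CPM at day 2 and at 124 and 122 CPM at day 4, a log2 fold change of -1.34 (SE 0.29, adjusted p = 0.0408, edgeR). Hk2, an inducible hexokinase, was at 73.0 and 85.5 CPM at day 2 and at 38.9 and 38.9 CPM at day 4. It fell by 1.03 with CP1 and by 0.63 in DMSO on the log2 scale, the largest change in DMSO among the members called there, and rose by 0.54 in WT cells. Ldha (ENSMUSG00000063229.15, chromosome 7, 46841475 to 46855627, plus strand), which turns pyruvate into lactate, was at 1644 and 1904 CPM at day 2, 949 and 912 CPM at day 4 and 2560 and 2413 CPM in DMSO. Its groups did not overlap, and it fell by 0.93 on the log2 scale (SE 0.06, adjusted p = 2.78e-11, edgeR) while it rose by 0.36 in WT cells. Aldoa (aldolase) went from 779 and 974 CPM to 353 and 335 CPM, and Pgam1 (phosphoglycerate mutase) from 334 and 354 CPM to 202 and 198 CPM. Pdk1, a kinase that keeps pyruvate out of the mitochondria, fell by 1.30 on the log2 scale. The constitutive hexokinase gene Hk1 did not pass (log2 fold change -0.62).

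Secreted and enzyme genes of the list fell as well. Vegfa, the angiogenic growth factor, was at 162 and 197 CPM at day 2, at 104.5 and 97.7 CPM at day 4 and at 118 and 113 CPM in DMSO. P4ha1, a collagen prolyl hydroxylase, went from 491 and 542 CPM to 300 and 291 CPM (log2 fold change -0.81, SE 0.05, adjusted p = 7.57e-12, edgeR). Ero1l, an oxidase of the endoplasmic reticulum, was at 111 and 215 CPM at day 2 and at 45.4 and 42.7 CPM at day 4, so that its day 2 repeats lay far apart. Car9 (ENSMUSG00000028463.14, chromosome 4, 43506966 to 43513729, plus strand), a surface carbonic anhydrase, was at 12.9 and 16.2 CPM at day 2, at 6.027 and 5.198 CPM at day 4 and at 2.79 and 2.28 CPM in DMSO. It fell by 1.36 on the log2 scale (SE 0.16, adjusted p = 3.82e-07, edgeR), and its day 4 level was still above both DMSO libraries. The levels of Adm (adrenomedullin) and Car12 were under 1 CPM in every DKO library, and neither passed.

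The position of day 2 differed among the 33 genes. Both day 2 CP1 libraries were above both DMSO libraries for 14 genes and below both for 11, while both day 4 CP1 libraries were below both DMSO libraries for 31. The summed level of the 33 genes was 12810 and 15740 CPM at day 2, 8220 and 7976 CPM at day 4, and 19450 and 17960 CPM in DMSO. Day 2 repeat 2 was above repeat 1 for 32 of the 33 (median log2 ratio 0.28), against a median ratio of -0.06 between the day 4 repeats. The matching shares over all tested genes were not counted, so these positions describe the 33 genes only. Set against day 2 repeat 1 alone the median log2 ratio of day 4 was -0.82, and against repeat 2 alone it was -1.08. Cell density, medium and oxygen are not given per library, and their part in the result was not tested.

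The difference between the day changes was also tested directly. Set against DMSO, 21 of the 33 genes had a lower day change with CP1 and 0 a higher one (median log2 difference -0.81), where 13.8% of all genes had a higher and 13.6% a lower difference. Set against WT cells with CP1, 24 of the 33 had a lower difference and 0 a higher one (median -1.13), where 5.37% of all genes were higher and 4.74% lower. Bnip3 had a log2 difference of -2.04 from DMSO (adjusted p = 0.00803, edgeR) and of -2.17 from WT cells (adjusted p = 0.00583, edgeR). The test against WT cells does not use the DMSO libraries. It has a limit of its own, since the WT CP1 repeats of day 2 were unlike in their share of ribosomal RNA counts (2.61 and 0.0333%). Those of day 4 held 2.18 and 2.06%. The SD of the log2 differences between the WT repeats was 0.177 at day 2 and 0.131 at day 4.

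**Figure D3:**
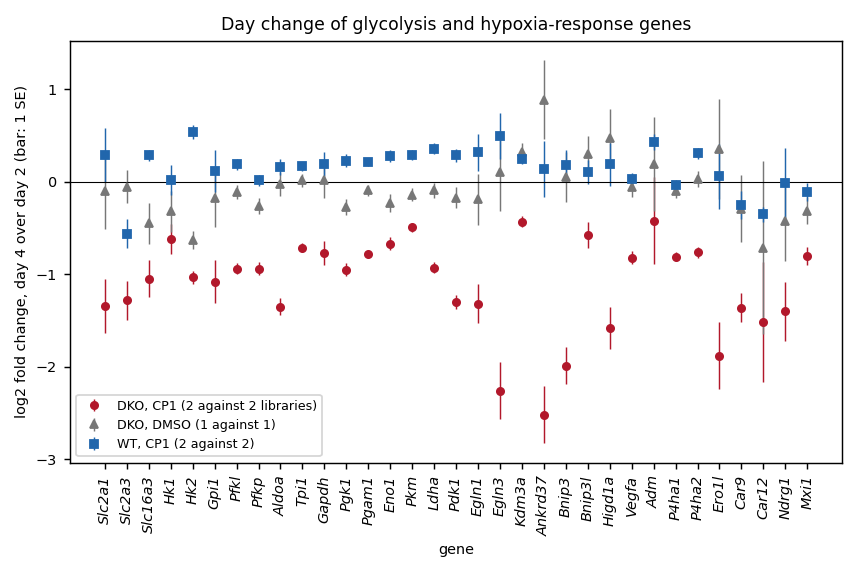
Log2 fold change of day 4 over day 2 (y axis, bars 1 SE) for each of the 33 genes (x axis) in DKO cells with CP1, DKO cells in DMSO and WT cells with CP1. The DKO CP1 points lie between -2.52 (Ankrd37) and -0.42 (Adm), and the median of the WT points is 0.19.

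The 10 genes with the largest rise at a mean log2 CPM of at least 2 were Agtr2, Kera, Rasl11a, Rspo2, Serpina3n, Saa3, Strip2, Dcn, Scara5 and Kitl. Agtr2 (ENSMUSG00000068122.10, chromosome X, 21484544 to 21489164, plus strand), a receptor of angiotensin II, was at 2.17 and 1.29 CPM at day 2 and at 13.6 and 13.2 CPM at day 4, with 0 counts in both DKO DMSO libraries. The day 4 libraries were within the range of WT cells with CP1 (12.1 to 16.4 CPM), and the log2 change was 2.95 (SE 0.21, adjusted p = 1.32e-10, edgeR). Kera (keratocan), a small leucine-rich proteoglycan, was at 4.39 and 2.15 CPM at day 2 and at 11.97 and 10.9 CPM at day 4, and it too had 0 counts in both DMSO libraries. Rspo2 (ENSMUSG00000051920.7, chromosome 15, 43020794 to 43170826, minus strand), a secreted enhancer of Wnt signalling, was at 27.4 and 25.0 CPM at day 2, at 74.5 and 71.9 CPM at day 4 and at 8.90 and 7.72 CPM in DMSO. It rose by 1.48 on the log2 scale (SE 0.06, adjusted p = 1.97e-15, edgeR), with a log2 difference of 1.69 from the DMSO change and of 1.58 from the WT change.

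Dcn (decorin), a proteoglycan that binds collagen fibrils, was at 43.4 and 43.1 CPM at day 2, at 111 and 107 CPM at day 4, at 1.05 and 1.93 CPM in DMSO and at 596 to 739 CPM in WT cells with CP1. The 4 sets did not overlap, and the log2 change was 1.34 (SE 0.05, adjusted p = 6.99e-16, edgeR). The acute-phase genes Saa3 and Serpina3n rose by 1.37 and 1.46 on the log2 scale. Saa3 went from 21.97 and 25.1 CPM to 57.2 and 64.8 CPM and rose by 1.26 in WT cells, and the difference between the genotypes did not pass (0.11, adjusted p = 0.652, edgeR). Kitl, the ligand of the KIT receptor, went from 41.4 and 34.6 CPM to 92.1 and 95.9 CPM, and was higher at day 4 in DMSO as well (log2 fold change 1.72). Scara5, a ferritin scavenger receptor, went from 8.40 and 6.19 CPM to 18.7 and 17.4 CPM, against 0 and 0.0585 CPM in DMSO. Strip2, a subunit of a phosphatase complex, and Rasl11a, a small GTPase, rose by 1.35 and 1.58.

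The 10 genes with the largest fall at a mean log2 CPM of at least 2 were Prg4, Bnip3, Ero1l, Fam162a, Higd1a, Prelid2, Avil, Sema4f, Ndrg1 and Syt17, of which Bnip3, Ero1l, Higd1a and Ndrg1 are in the list of glycolysis and hypoxia-response genes. Prg4 (ENSMUSG00000006014.16, chromosome 1, 150449412 to 150466165, minus strand), the joint lubricant lubricin, was at 49.2 and 40.6 CPM at day 2, at 11.8 and 9.45 CPM at day 4 and at 14.3 and 20.9 CPM in DMSO. Day 2 was the high group and day 4 the lowest, and the log2 change was -2.06 (SE 0.13, adjusted p = 4.22e-11, edgeR) against 0.55 in DMSO. Sema4f, a semaphorin guidance gene, went from 6.73 and 7.21 CPM to 2.80 and 2.24 CPM. Avil (advillin, an actin-binding protein), Prelid2 (of the PRELI family) and Syt17 (a synaptotagmin) fell by 1.46, 1.53 and 1.39 on the log2 scale.

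**Figure D4:**
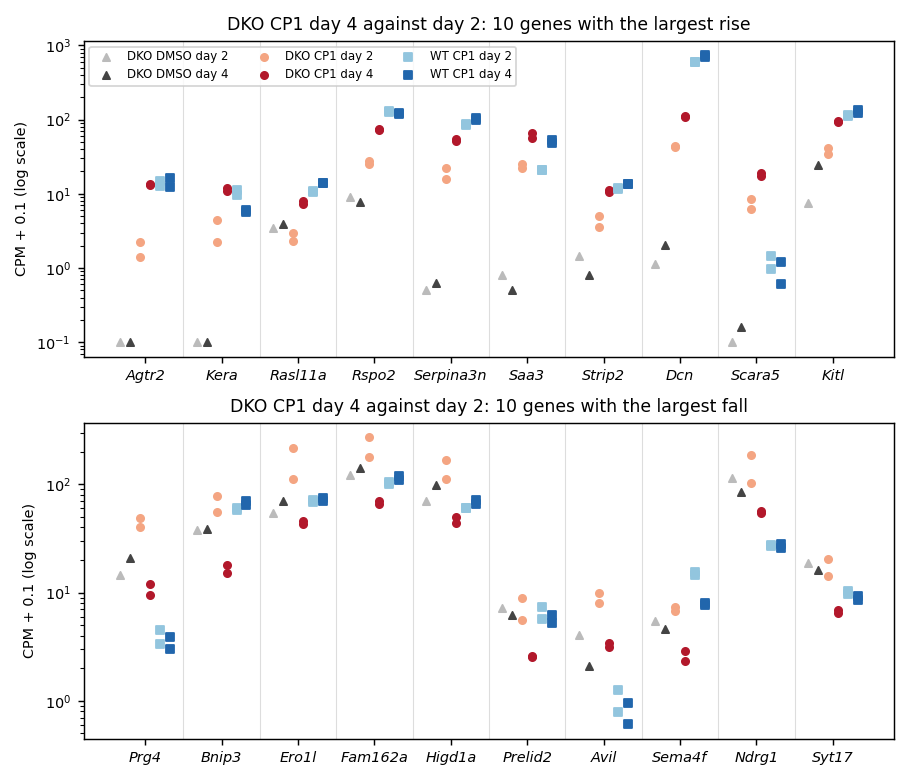
CPM + 0.1 (y axis, log scale) of the 10 genes with the largest rise (upper panel) and fall (lower panel), 1 point per library. For each gene the 2 DKO CP1 day 4 points lie on 1 side of both day 2 points, which the choice of genes required, and Agtr2 and Kera sit at 0 counts in both DKO DMSO libraries.

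Counts in this and the next paragraphs stand beside shares over all genes of 12.1% higher and 12% lower with CP1. Those shares were 13.1% and 15% in DMSO and 7% and 8.26% in WT cells with CP1. For the difference of the day changes between CP1 and DMSO they were 13.8% and 13.6%, and between DKO and WT cells 5.37% and 4.74%. Among genes of growth and division the changes were small. Of 25 genes of ribosome biogenesis, many of them MYC targets, 19 rose and 0 fell (median log2 fold change 0.32). Ncl (nucleolin) went from 601 and 570 CPM to 828 and 847 CPM, a log2 fold change of 0.52 (SE 0.05, adjusted p = 7.39e-09, edgeR), and stood at 1219 and 1153 CPM in DMSO. Dkc1 (a pseudouridine synthase), Utp20 and Nolc1 (nucleolar processing factors) rose by 0.53, 0.51 and 0.38. In DMSO 5 of the 25 were higher and 8 lower, and 17 had a higher and 1 a lower difference between the 2 day changes. In WT cells with CP1 20 rose and 0 fell. Of 39 cytosolic ribosomal protein genes 0 rose and 26 fell (median -0.18), among them Rpl3 (from 627 and 659 CPM to 532 and 540 CPM), Rpl5, Rpl22 and Rpl37, with 6 higher and 6 lower in DMSO and 0 and 21 in WT cells. That count rests on single libraries, since without day 4 repeat 1 it was 7 and without day 2 repeat 2 it was 15.

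Of 31 genes of mitosis 16 rose and 0 fell (median 0.14). Cenpe, the kinesin of the kinetochore, was at 75.1 and 68.7 CPM at day 2 and at 103 and 108 CPM at day 4, a rise of 0.56, while the DMSO libraries went from 15.7 to 63.3 CPM (log2 fold change 2.02). Kif11 and Mad2l1, of spindle assembly and its checkpoint, rose by 0.29 and 0.31. In DMSO 14 of the 31 were higher and 6 lower, and in WT cells 13 rose and 0 fell. Of 35 genes of the G1/S transition and DNA replication 12 rose and 1 fell, and 4 were higher and 13 lower in DMSO. Without day 4 repeat 1 the count that rose was 6. Among those that rose, Rrm1 (ribonucleotide reductase) went from 311 and 305 CPM to 371 and 360 CPM, and Tyms and Ccne2 rose by 0.29 and 0.36 on the log2 scale. Of 10 genes of CDK inhibitors and D-type cyclins 2 rose and 2 fell, with 2 higher and 4 lower in DMSO, and 5 fell without day 2 repeat 1.

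Some transcripts from mitochondrial DNA rose at the same time. Of 13 mitochondrially encoded genes 7 rose and 2 fell (median 0.20), with 1 higher and 3 lower in DMSO and 6 and 0 in WT cells. These genes are rich in AT, and with a correction for GC content 6 rose and 3 fell (median 0.07), while 7 rose and 0 fell without day 4 repeat 1 (median 0.42) or without day 2 repeat 2 (median 0.29). mt-Nd4, a subunit of complex I, was at 801 and 798 CPM at day 2, at 1195 and 1206 CPM at day 4 and at 1009 and 792 CPM in DMSO. Day 4 was above every other DKO library, with a log2 fold change of 0.59 (SE 0.05, adjusted p = 6.83e-10, edgeR). mt-Nd1, mt-Nd2 and mt-Cytb rose by 0.58, 0.63 and 0.56. For all genes with the symbol prefix mt-, a wider set than the 13 above, the share of all counts was 1.41 and 1.45% at day 2. It was 1.88 and 1.89% at day 4 and 1.33 and 1.32% in DMSO. Of 36 nuclear genes of the respiratory chain 8 rose and 0 fell (median 0.05), and 15 were higher and 4 lower in DMSO. The 8 became 2 without day 4 repeat 1, 3 without day 4 repeat 2 and 5 without day 2 repeat 1.

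The extracellular matrix changed in both directions. Of 23 collagen genes 2 rose (1 without day 2 repeat 2 or either day 4 repeat) and 11 fell (median -0.19), with 1 higher and 3 lower in DMSO and 0 and 18 in WT cells. Col1a1, the main chain of type I collagen, was at 6971 and 7223 CPM at day 2, at 4538 and 4820 CPM at day 4 and at 3019 and 3544 CPM in DMSO. The day 4 libraries lay between day 2 and DMSO, and the log2 change was -0.60 (SE 0.04, adjusted p = 1.72e-10, edgeR) against 0.23 in DMSO and -0.58 in WT cells. Col6a3 and Col1a2 fell by 0.62 and 0.28 on the log2 scale, and Col14a1 rose by 0.40. Of 37 matrix glycoproteins and proteoglycans 10 rose and 14 fell, with 6 higher and 10 lower in DMSO. Fn1 (fibronectin) went from 4408 and 4662 CPM to 2831 and 3044 CPM, a fall of 0.63, and had a log2 difference of -0.62 from WT cells, where it did not change by the test (0.00). Vcan (versican) went from 212 and 180 CPM to 371 and 367 CPM, and Fbln1 (fibulin 1) from 106 and 114 CPM to 167 and 174 CPM. The DMSO libraries of Vcan differed more, at 29.5 and 134 CPM. In WT cells with CP1 3 of the 37 rose and 25 fell (median -0.26), where the DKO median was -0.05. Set against WT cells, 21 of the 37 had a higher and 7 a lower day change in DKO cells.

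Of 24 matrix proteases and their inhibitors 7 rose and 7 fell, with 0 higher and 5 lower in DMSO, and 11 fell without day 2 repeat 1. Adamts1, a protease that cuts versican, went from 404 and 359 CPM to 623 and 617 CPM, and Serpine2 (protease nexin) from 818 and 854 CPM to 1256 and 1244 CPM. Both rose in DKO cells and fell in WT cells with CP1 (log2 fold changes -0.41 and -0.20). Of 26 integrins and laminins 1 rose and 11 fell, against 2 and 7 in DMSO, with Lama5 (410 and 463 CPM to 237 and 258 CPM) the gene of smallest p and Itga1 the one that rose. Of 25 contractile and SRF target genes 8 rose and 3 fell, against 3 and 10 in DMSO, and 11 had a higher and 3 a lower difference between the 2 day changes. Without day 4 repeat 1 the contractile counts were 2 and 1, and without day 4 repeat 2 they were 5 and 2.

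Of 19 TGF-beta target genes 1 rose and 11 fell (median -0.31), against 3 and 6 in DMSO and 3 and 5 in WT cells. Pmepa1, a feedback inhibitor of TGF-beta signalling, was at 88.2 and 94.9 CPM at day 2, at 58.3 and 55.2 CPM at day 4 and at 153 and 146 CPM in DMSO. Day 4 was the lowest group, with a log2 fold change of -0.69 (SE 0.06, adjusted p = 1.24e-09, edgeR). Tgfbi, Skil and the ligand gene Tgfb1 fell by 0.53, 0.52 and 0.42 on the log2 scale, and Skil was higher at day 4 in DMSO (1.05). Of 14 feedback targets of Wnt and beta-catenin 0 rose and 7 fell, among them Tcf7, Nkd2 and Nkd1 (falls of 0.71, 0.59 and 0.67), with 1 higher and 4 lower in DMSO. The 7 became 4 without day 2 repeat 1 or without day 4 repeat 1. Of 23 Wnt ligands and secreted modulators 4 rose and 4 fell, against 0 and 1 in DMSO, 2 fell without day 2 repeat 2 or without day 4 repeat 1, and Rspo3 rose by 0.53. Of 19 BMP ligands, antagonists and ID genes 6 rose and 4 fell, against 5 and 1 in DMSO. Of 19 Notch and hedgehog genes 2 rose (1 without day 2 repeat 2) and 6 fell, against 1 and 4 in DMSO, among them the receptor gene Notch3 (92.3 and 102 CPM to 52.9 and 58.0 CPM) and the ligand gene Jag2.

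Of 39 growth factors and receptors 10 rose and 10 fell, against 6 and 4 in DMSO. Pdgfra, the PDGF receptor that marks fibroblasts, was at 164 and 162 CPM at day 2, at 280 and 271 CPM at day 4, at 63.8 and 45.0 CPM in DMSO and at 291 to 354 CPM in WT cells. The day 4 level lay above all DKO libraries and below WT cells, and the log2 change was 0.76 (SE 0.04, adjusted p = 8.94e-13, edgeR) against -0.51 in DMSO and -0.27 in WT cells. Igf1 went from 82.6 and 71.6 CPM to 140 and 130 CPM, and Pdgfc fell by 0.75 on the log2 scale. Of 29 NF-kB targets, cytokines and chemokines 13 rose and 7 fell, against 4 and 3 in DMSO, and 2 fell without day 4 repeat 1. The adhesion molecule gene Vcam1 went from 183 and 164 CPM to 300.4 and 305 CPM while it was lower at day 4 in DMSO (-0.46), and the chemokine gene Cxcl12 went from 533 and 441 CPM to 822 and 835 CPM, with 73.9 and 63.8 CPM in DMSO. Il1rn, the interleukin 1 receptor antagonist, rose by 0.93. The members named here are all among those that rose, while the median of the 29 was 0.03. In WT cells with CP1 8 of the 29 rose and 4 fell (median 0.12).

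Of 38 interferon-stimulated genes 6 rose and 6 fell (median -0.03), against 5 and 6 in DMSO. These counts were near the shares over all genes (12.1% and 12% with CP1, 13.1% and 15% in DMSO). Without day 4 repeat 1 the counts were 3 and 2, and without day 4 repeat 2 they were 5 and 3. All 38 fell in WT cells with CP1 (median -1.35), and 34 had a higher day change in DKO than in WT cells. Over all genes 8.26% fell in WT cells and 5.37% had a higher day change in DKO cells. Bst2 (tetherin) went from 115 and 119 CPM to 93.2 and 104 CPM, a fall of 0.25, and fell by 1.19 in WT cells. Of 34 genes of the ATF4 response and amino acid supply 3 rose and 12 fell, among them Trib3 and Vldlr, with 4 higher and 15 lower in DMSO. In WT cells 17 of the 34 rose and 0 fell, against 7% and 8.26% of all genes. Of 25 genes of cholesterol synthesis 0 rose and 9 fell (Srebf2, their master regulator, from 397 and 403 CPM to 311 and 315 CPM), against 2 and 1 in DMSO, and 5 fell without day 4 repeat 2. Of 19 genes of fatty acid synthesis and desaturation 3 rose (1 without day 4 repeat 1) and 10 fell, and 1 was higher and 11 lower in DMSO. Scd2, a desaturase, went from 1521 and 1518 CPM to 1099 and 998 CPM.

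For most of the lists below the shares called lay near those over all genes (12.1% higher and 12% lower), or the counts changed on leaving out 1 library. Nothing is read from those lists. The heat shock and clock lists are exceptions: without 1 library 4 to 6 heat shock genes rose and 6 to 8 clock genes fell. Of 20 genes of endoplasmic reticulum chaperones and the unfolded protein response 5 rose and 2 fell (2 and 6 in DMSO, and 7 fell without day 2 repeat 1). Of 26 p53 targets 4 rose and 2 fell (8 and 6 in DMSO, and 5 fell without day 2 repeat 1). Of 28 immediate early and ERK feedback genes 3 rose and 6 fell (3 and 1 in DMSO), which became 0 and 13 without day 2 repeat 1 and 0 and 4 without day 4 repeat 1. Of 30 lysosome and autophagy genes 3 rose and 8 fell (2 and 7 in DMSO), which became 0 and 3 without day 4 repeat 1. Of 23 NRF2 targets 4 rose and 5 fell (3 and 6 in DMSO), and of 22 quiescence genes 5 and 5 (2 and 4 in DMSO), where 8 of either list fell without day 2 repeat 1. Of 14 heat shock genes 5 rose and 1 fell (2 and 3 in DMSO), of 8 aryl hydrocarbon receptor targets 3 and 2 (2 and 2 in DMSO, and 1 and 0 without day 4 repeat 1), and of 30 HOX genes 4 and 0 (0 and 2 in DMSO). Of 18 clock genes 4 rose and 8 fell, against 4 and 3 in DMSO. Bhlhe40, a clock repressor that is also a HIF target, went from 109 and 143 CPM to 52.1 and 54.1 CPM, a log2 fold change of -1.24 (SE 0.12, adjusted p = 0.000145, edgeR), with 65.6 and 70.7 CPM in DMSO.

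**Figure D5:**
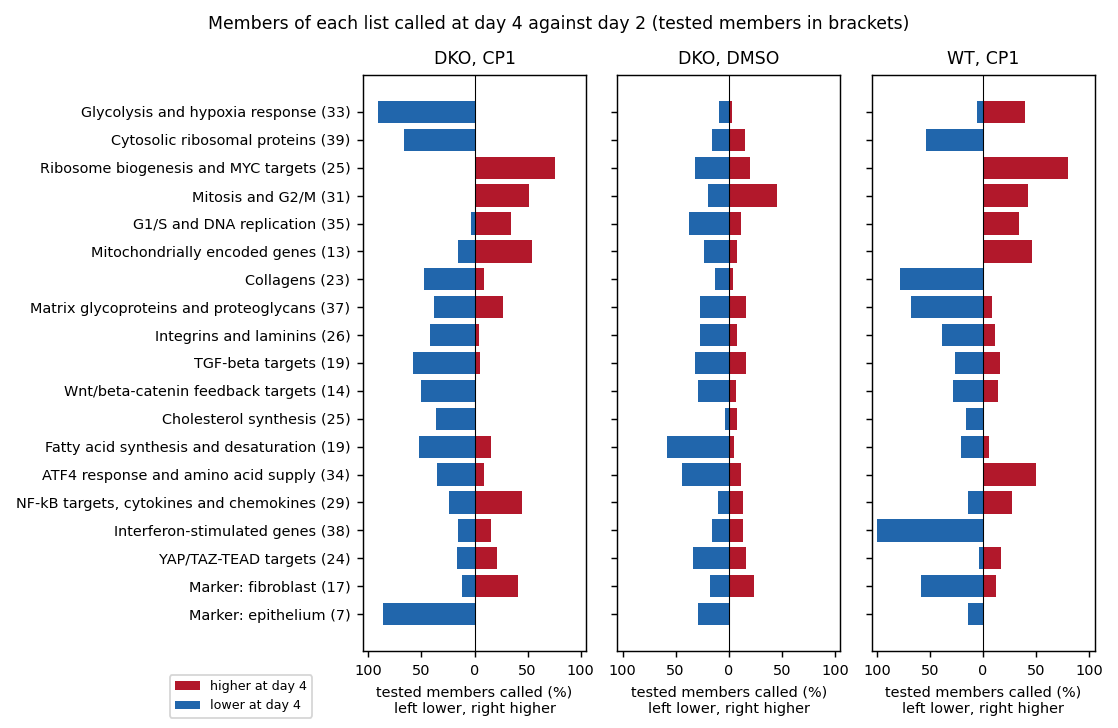
Share of the tested members of 19 gene lists (rows, number tested in brackets) that were called higher (right) or lower (left) at day 4, in DKO cells with CP1, DKO cells in DMSO and WT cells with CP1. Glycolysis and hypoxia-response genes fell in DKO cells with CP1 (30 of 33), and interferon-stimulated genes fell in WT cells (38 of 38).

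Of 24 targets of YAP/TAZ and TEAD 5 rose and 4 fell (median 0.00), near the shares over all genes (12.1% and 12%), and 4 were higher and 8 lower in DMSO. Without day 4 repeat 1 the counts were 2 and 1, and without day 4 repeat 2 they were 2 and 2. Ccn1 (CYR61), a matricellular protein, was at 561 and 540 CPM at day 2, at 475 and 485 CPM at day 4 and at 652 and 783 CPM in DMSO. It fell by 0.20 on the log2 scale (SE 0.05, adjusted p = 0.00322, edgeR), a call that was lost without day 4 repeat 1 (adjusted p = 0.0666, edgeR). Ccn2 (CTGF) was at 89.1 and 84.7 CPM at day 2 and at 87.8 and 86.8 CPM at day 4, with a change of 0.01 on the log2 scale (adjusted p = 0.955, edgeR). Ankrd1, Amotl2 and Axl had log2 fold changes of -0.02, 0.00 and 0.05, none of which passed. Among the targets that passed, Rbms3 rose by 0.41 and Asap1 fell by 0.36.

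Of 25 Hippo pathway components 6 rose and 3 fell (2 and 1 without day 4 repeat 1, 5 and 1 without day 2 repeat 2), against 7 and 12 in DMSO. Tead1, one of the factors that MGH-CP1 binds, was at 265 and 244 CPM at day 2, at 199 and 201 CPM at day 4 and at 281 and 339 CPM in DMSO. It fell by 0.35 on the log2 scale (SE 0.04, adjusted p = 1.86e-06, edgeR), and it was higher at day 4 in DMSO (0.27) and did not pass in WT cells (0.09). Tead3 and Wwtr1 (TAZ) fell by 0.16 and 0.15, calls that were lost on leaving out 1 library. Yap1, Tead2 and Tead4 did not pass, with log2 fold changes of 0.02, 0.01 and 0.19. Lats1 and Lats2, as far as their reads are counted, did not pass either (0.11 and 0.21). Fat4, a giant protocadherin, went from 161 and 147 CPM to 216 and 214 CPM, and the co-factor gene Vgll3 rose by 0.21.

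Markers of other cell types were read in the same libraries. Of 18 fibroblast markers 17 were tested, and 7 rose and 2 fell. Their summed level was 16810 and 17520 CPM at day 2, 13980 and 14210 CPM at day 4 and 10580 and 10090 CPM in DMSO. The sum includes the abundant Col1a1 and Col1a2, which fell, while the median log2 fold change of the 17 was 0.25. Thy1 had 0 counts in both DMSO libraries and was at 0.167 to 1.23 CPM with CP1. Of 11 epithelial markers 7 were tested, and 0 rose and 6 fell, with a summed level of 109 and 113 CPM at day 2, 71.6 and 71.5 CPM at day 4, 176 and 134 CPM in DMSO and 32.0 to 37.3 CPM in WT cells with CP1. Krt5, Krt14, Cldn3 and Cldn4 did not pass the filter. Most of the sum is Pkp1 (plakophilin 1), at 89.3 and 89.9 CPM at day 2 and 64.3 and 64.3 CPM at day 4. Krt8, a keratin of simple epithelia (ENSMUSG00000049382.10, chromosome 15, 101996698 to 102004482, minus strand), had 61 and 88 counts at day 2, 1 and 0 at day 4, and 10 and 6 in DMSO. Over both libraries of a day that is 149 counts against 1, a ratio of 170 (exact 95% interval 30.1 to 6770, counting error only) after scaling to library size. Epcam had 17 and 24 counts at day 2, 0 and 1 at day 4, and 1 and 0 in DMSO.

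In bulk samples fewer cells of a type and less RNA per cell cannot be told apart. Krt19 went from 2.28 and 3.93 CPM to 0.544 and 0.615 CPM and Cdh1 (E-cadherin) from 6.12 and 5.49 CPM to 2.68 and 2.63 CPM. The part of epithelial cells in the other results was not tested. Of 10 macrophage markers 3 were tested and 1, Cd68, fell, a call lost without either repeat 2 (summed level 11.96 and 14.9 CPM at day 2, 11.1 and 8.38 CPM at day 4). Of 17 fibroblast markers 4 were higher and 3 lower in DMSO, and of 7 epithelial markers 0 and 2. Of the endothelial, neural, fat and cartilage or bone markers 1 of 6, 1 of 8, 1 of 6 and 3 of 12 tested rose and 1, 1, 0 and 3 fell, where the endothelial and fat calls were lost without day 4 repeat 1, and of the tested muscle and erythroid markers (3 and 2) none passed. In DMSO 0, 1, 0 and 3 of the endothelial, neural, fat and cartilage or bone markers were higher and 2, 2, 1 and 0 lower. None of the tested macrophage, muscle or erythroid markers passed there.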

How the data were processed

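RNA-seq libraries were compared from the deposited tables of counts per gene, which the authors did not normalize. Reads were counted with featureCounts 1.5.2 on mm10, per the submitters' processing notes. The aligner and the use of strand are not given in the sources used here, so reads of overlapping and antisense genes cannot be separated. The deposited TPM values of the authors, scaled by transcript length and depth, served an alternative, log2(TPM + 1) with limma 3.58.1. Genes passed the filterByExpr rule of edgeR (minimum count 10, minimum total 15), which removed 15573 genes. Counts were scaled by TMM and fitted with edgeR 4.0.16 (R 4.3.3), robust quasi-likelihood, with 8 group means over 12 libraries (4 residual degrees of freedom). Calls used an adjusted p under 0.05 (Benjamini-Hochberg over 16595 genes). DESeq2 1.42.0, other scalings and filters, a GC offset, fits with the replicate number and fits without each CP1 library were alternatives. Library totals were 16970834 to 25299262 counts, and intervals on counts cover counting error only.

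Members and lists were chosen with earlier results of these data known, and 4 lists in the closing section after their values were seen. Named were 13 fixed genes, the 10 largest rises and 10 largest falls (called, mean log2 CPM of at least 2, days not overlapping), up to 4 called members per list by p, and 5 genes per direction of each difference. Predicted gene models were passed over. Other named genes, including further members of the glycolysis list and the marker lists, were chosen after their values were seen. The scripts were tested on simulated data. Some genes that the rule selects are not reported here.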

Additional observations from a re-analysis of the deposited data

Results flagged for a closer look

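Results are listed here because a test found a different day change in 2 groups. For 4547 genes the change from day 2 to day 4 in DKO cells differed between CP1 and DMSO (quasi-likelihood test of edgeR, p-values adjusted after Benjamini and Hochberg). Among the genes with the largest differences the change was higher with CP1 for Igfbp3 (log2 difference 2.79), Strip2 (2.28), Saa3 (2.13), Serpina3f (2.02) and Tent5c (1.84). Saa3 was at 0.698 and 0.409 CPM in DMSO and Igfbp3 at 0.757 and 0.234 CPM. The change was lower with CP1 for Igip (-4.08), Xist (-3.25), Zbtb20 (-3.17), Myo9a (-3.16) and Rev3l (-3.12). Each of these last 5 was low in the lone DKO DMSO library of day 2: Xist, for example, stood at 41.0 CPM there, at 368 CPM in the DMSO library of day 4 and at 782 to 969 CPM in the DKO CP1 libraries.

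For 1678 genes the day change under CP1 differed between DKO and WT cells by the same test. It was higher in DKO cells for Apod (4.02), Agtr2 (2.90), Kera (2.65), Arhgap36 (2.32) and Iigp1 (2.16). Apod, a lipocalin, went from 4.23 and 3.18 CPM to 9.17 and 9.06 CPM in DKO cells and from 19.9 and 22.5 CPM to 2.997 and 3.43 CPM in WT cells. Arhgap36 did not pass in DKO cells (-0.11) and fell in WT cells (-2.44). The change was lower in DKO cells for Bnip3 (-2.17), Casz1 (-2.06), Fam162a (-1.88), Prg4 (-1.87) and Fosl1 (-1.83). The calls of Fam162a and Fosl1 were each lost in 6 of 8 fits without 1 library, and that of Casz1 in 3 of 8.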

How the results depend on the processing

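The fall of the glycolysis and hypoxia-response list held its direction in every fit run, with 23 to 31 of 33 genes called, and set against WT cells 18 to 30 had a lower day change. Of 196 called results on named genes 71 were called in every alternative. Over all 205 named results, called or not, 2432 of 2679 alternative values stayed on their side of the threshold, 243 called ones lost the call, 4 gained it and 0 reversed. The 4012 genes called with CP1 became 2133 with DESeq2, 769 with limma on log2(TPM + 1) and 346 at a change of at least 2-fold, and 2179 to 4430 without 1 library, the lowest without DKO day 4 replicate 1. The DMSO change went from 4659 to 1120 genes with limma and its difference from CP1 from 4547 to 861. The DKO minus WT difference went from 1678 to 854 with DESeq2 and 416 with limma, and ran from 973 (without DKO day 4 replicate 1) to 2676 (without DKO day 2 replicate 1), with 1014 and 1070 without WT day 2 replicate 1 and 2.

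With limma the list counts were 0 for ribosome biogenesis, 0 for ribosomal proteins (7 to 35 without 1 library), 1 for mitosis, 4 for TGF-beta targets, 8 for NF-kB targets, 2 for collagens, 1 for integrins and laminins (7 with DESeq2), and 12 for the difference of the glycolysis and hypoxia-response list from DMSO. The cause was not tested. Scaling to library totals gave 2586 higher and 1455 lower genes in DMSO (64.0% higher against 46.7%) and 1499 and 2711 for the difference (35.6% against 50.3%). With limma the splits were 256 and 513 with CP1, 1051 and 69 in DMSO, 107 and 754 for the difference, and 276 and 140 for DKO minus WT. With the GC offset, added after seeing the data, DMSO had 1745 higher and 2478 lower genes.

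Samples with the same replicate number deviated together weakly in DKO cells (r = 0.125) and not in WT cells (r = -0.006), so the numbers were not taken to pair them. With the replicate number as a block 4417 genes were called with CP1, 4963 in DMSO, 4886 for their difference and 2075 for DKO minus WT, and 23 genes of the glycolysis and hypoxia-response list.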

Other observations

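Counts for 4 other gene groups, chosen after their values were seen, stand beside shares over all genes of 12.1% higher and 12% lower. Of 20 genes of glycogen metabolism 1 rose and 8 fell with CP1 in DKO cells, and 1 was higher and 5 lower in DMSO. Gys1, the glycogen synthase of most tissues, went from 140 and 185 CPM to 90.5 and 87.5 CPM, and Ppp1r3b, a targeting subunit that brings a phosphatase to glycogen, from 3.003 and 5.44 CPM to 1.17 and 0.950 CPM. Ugp2, which makes UDP-glucose, rose by 0.50 on the log2 scale. Of 22 tested genes of MHC class I and II 1 rose and 14 fell (median -0.59), against 1 and 3 in DMSO and 0 and 17 in WT cells with CP1. H2-K1 went from 937 and 1042 CPM to 635 and 671 CPM and stood at 178 and 163 CPM in DMSO, and Cd74, the invariant chain, went from 25.0 and 26.7 CPM to 11.3 and 11.2 CPM. Of 30 semaphorins, plexins and neuropilins 4 rose and 8 fell, against 4 and 6 in DMSO, and the receptor gene Nrp1 rose by 0.67. Of 19 tested clustered protocadherin beta genes 8 rose and 0 fell (median 0.52), with 0 higher and 1 lower in DMSO and 1 and 0 in WT cells. Members of the MHC and protocadherin families share sequence, so the counts of single members are uncertain.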
